A study of Mus musculus with 15 samples.

Results

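The matrix proteases and their tissue inhibitors were taken as every gene whose symbol is Mmp followed by digits, Timp1 to Timp4, or begins with Adamts, and which had a probe set annotated to that gene alone. The rule found 42 genes among 18193 genes on the array: 18 matrix metalloproteinases (Mmp), 4 tissue inhibitors of metalloproteinases (Timp), 15 Adamts proteases and 5 Adamts-like (Adamtsl) genes. They were covered by 78 probe sets, and each gene is given by its probe set of highest mean level over 15 arrays.

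RNA from the entire aorta, root to bifurcation, was hybridized to Affymetrix mouse expression arrays, with 1 array per mouse. Levels are log2 values made by RMA, a method that corrects background, normalizes arrays and summarizes the probes of each probe set. A difference of 1 on this scale is therefore a 2-fold difference. All mice were male C57BL/6 mice aged 9 weeks and lacked ApoE, an apolipoprotein that clears remnant lipoproteins, without which mice develop atherosclerosis. RAGE, encoded by Ager, is a cell-surface receptor for glycated proteins and for S100 proteins, and some of the mice lacked it as well. Diabetes had been induced with streptozotocin, which destroys pancreatic beta cells, at 65 mg/kg in 5 daily injections begun at 6 weeks of age, and non-diabetic mice had been given buffer. The arrays comprised 4 from diabetic ApoE-/- mice (replicates 1 to 4), 4 from non-diabetic ApoE-/- mice (replicates 5 to 8), 4 from diabetic ApoE-/- RAGE-/- mice (replicates 9 to 12) and 3 from non-diabetic ApoE-/- RAGE-/- mice (replicates 13 to 15). The ApoE-/- mice came from a commercial breeder and the ApoE-/- RAGE-/- mice from another laboratory's colony, so genotype and colony cannot be told apart. Wild-type mice carrying ApoE were not analysed here.

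Matrix metalloproteinases are zinc enzymes that are made as inactive precursors and together cut most proteins of the extracellular matrix. The 4 Timp proteins bind their active sites and block them. Adamts enzymes cleave proteoglycans, procollagens and other matrix proteins, whereas Adamtsl proteins share their matrix-binding modules but lack the protease domain. In arteries these proteins take part in the turnover of the fibrous cap, of elastic lamellae and of proteoglycans.

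Array medians lay between 4.36 and 4.43, and the small number of arrays limits the precision. Smooth muscle markers read between 12.03 and 12.66 (mean log2 level of 4 genes) in all 15 arrays. Before any comparison, 2 arrays need to be named. Decr2, a gene on chromosome 17, as Ager is, was chosen because its level differs between the genotypes in these arrays, and it read 5.32 to 6.01 in the 8 ApoE-/- arrays and 6.84, 6.98 and 6.90 in the non-diabetic ApoE-/- RAGE-/- arrays. Among the 4 arrays labelled diabetic ApoE-/- RAGE-/-, it read 7.40 in replicate 11 and 7.56 in replicate 12, but 5.19 in replicate 9 and 5.10 in replicate 10. Cyp39a1, on the same chromosome, read 4.57 in both replicates 9 and 10, 4.08 to 4.98 in the ApoE-/- arrays and 5.39 to 6.13 in replicates 11 to 15. An Ager probe set gave the same split, with 4.63 and 4.48 in replicates 9 and 10, 4.17 to 4.69 in the ApoE-/- arrays and 4.89 to 5.36 in replicates 11 to 15. Its level was thus raised, where a deletion would lower it, in replicates 11 to 15, so that it does not measure the deletion itself, and the other Ager probe set did not separate the genotypes. Replicates 9 and 10 thus read like ApoE-/- arrays for these genes. Results that rest on this group use all 4 arrays as labelled, and values without replicates 9 and 10 stand beside the differences discussed. In replicate 10, 3 measured B cell markers averaged 7.99, beside 2.93 to 5.57 in the other arrays, and 3 T cell markers 7.35, beside 3.76 to 4.69. In replicate 11, 4 airway markers averaged 7.11, beside 3.81 to 5.79. In non-diabetic ApoE-/- replicate 8, 5 cardiac muscle markers averaged 11.40, beside 5.48 to 9.10 in the other arrays. The labels do not say whether the mice of a group shared litters or hybridization runs, and p-values measure the spread between these arrays.

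Of the 42 genes, 30 read above background, set as the 95th percentile of 43 olfactory receptor probe sets (3.47). These were 12 of 18 Mmp genes, 4 of 4 Timp genes, 9 of 15 Adamts genes and 5 of 5 Adamtsl genes. The other 12 were the collagenases Mmp1a, Mmp1b, Mmp8 and Mmp13, together with Mmp19, Mmp20, Adamts3, Adamts4, Adamts7, Adamts18, Adamts19 and Adamts20. For these a difference may understate a true one or be noise.

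Mmp3, Mmp10, Mmp12, Mmp13, Mmp7, Mmp1a, Mmp1b, Mmp8 and Mmp20 lie together on chromosome 9. The AP-1 site TGACTCA, read on either strand (TGAGTCA on the other), is bound by Jun and Fos proteins and is known from human MMP promoters. It was searched in the 250 bases before each RefSeq start (GRCm38.p6), with no other motif and no overlapping matches. Of the 27 genes with such a window, 7 held it, and all 7 belonged to this chromosome 9 group, where 7 of 9 held it. Among all 27025 genes with a window the share was 5.16%. The sequences below are shown because Mmp3, Mmp10 and Mmp12, described below, and the collagenase gene Mmp13 are neighbours that hold the site, and because Timp4, the gene with the smallest p here, had no match. Capitals mark the match.
Mmp3, chr9:7445572-7445821, plus strand: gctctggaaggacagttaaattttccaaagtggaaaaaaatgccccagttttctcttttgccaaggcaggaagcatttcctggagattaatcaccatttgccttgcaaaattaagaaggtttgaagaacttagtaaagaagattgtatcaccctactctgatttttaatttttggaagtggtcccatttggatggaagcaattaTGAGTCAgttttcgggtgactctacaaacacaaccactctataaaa
Mmp10, chr9:7502242-7502341, plus strand: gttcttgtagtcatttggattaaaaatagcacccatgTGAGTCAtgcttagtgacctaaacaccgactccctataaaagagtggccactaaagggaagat
Mmp12, chr9:7347274-7347373, plus strand, at the second of its 2 starts: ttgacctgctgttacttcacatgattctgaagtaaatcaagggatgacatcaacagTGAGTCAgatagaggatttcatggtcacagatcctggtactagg
Mmp13, chr9:7272414-7272513, plus strand: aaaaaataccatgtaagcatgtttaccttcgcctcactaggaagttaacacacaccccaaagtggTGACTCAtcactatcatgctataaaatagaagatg
Timp4, chr6:115252206-115252455, minus strand: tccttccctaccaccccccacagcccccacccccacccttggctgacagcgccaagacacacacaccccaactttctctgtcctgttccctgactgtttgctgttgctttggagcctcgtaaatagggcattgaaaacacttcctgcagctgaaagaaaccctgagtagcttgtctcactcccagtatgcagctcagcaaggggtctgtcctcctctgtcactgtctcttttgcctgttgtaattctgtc
The last base of the match stood 40 bases before the start in Mmp3, 57 in Mmp10, 38 in Mmp12 and 29 in Mmp13. A match is a stretch of letters, and no binding was measured here.

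No gene of the 42 passed an adjusted p of 0.05 (limma, Benjamini-Hochberg over 45037 probe sets) in any of the 4 pairwise comparisons or in their interaction. The share of all probe sets that passed was 0% in each, except 0.244% (110 probe sets) for RAGE deletion with diabetes. The differences below are therefore given as values with their errors, and counts at an unadjusted p under 0.05 are given beside the share of all 18193 genes at that level.

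Diabetes in ApoE-/- aorta was accompanied by higher mean levels of Mmp3, Timp1, Adamtsl3, Mmp12 and Adamts5 and by lower mean levels of Timp4, Mmp8 and Mmp1a. Those were the 8 of 42 genes at an unadjusted p under 0.05, or 19.0%, beside 13.2% of all genes, with 5 higher (7.27% of all genes) and 3 lower (5.94%). Among genes above background the shares were 6 of 30, or 20.0%, and 16.9%. The 42 differences had a median of -0.01, with 20 above 0 and 22 below, where the median of all genes was 0.00.

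RAGE deletion with diabetes was accompanied by lower mean levels of Mmp2, Mmp9, Mmp12, Mmp16, Mmp17, Timp3, Adamts8 and Adamtsl3 and by higher mean levels of Timp4 and Adamts15. These 10 genes were 23.8% of the 42, beside 17.9% of all genes at that level, with 2 higher (6.62% of all genes) and 8 lower (11.3%). The 10 all lay among the 30 above background, where the share was 33.3% beside 22.9% for all genes above background. Of the 42 differences, 27 were below 0, with a median of -0.07 against 0.00 for all genes. In the 30 above background 20 were below 0, and the median was -0.21 against -0.02. Without replicates 9 and 10 the count was 9, beside 21% of all genes, and the median of the 42 was -0.11. The genes were not the same: 5 of the 10 were still at that level (Timp4, Adamtsl3, Timp3, Mmp16 and Mmp17), 5 were not (Mmp2, Mmp9, Mmp12, Adamts8 and Adamts15), and Mmp3, Mmp10, Mmp14 and Adamts1 came in. Since the same 4 diabetic ApoE-/- arrays stand in this comparison and in that of diabetes in ApoE-/- mice, the comparisons are not independent.

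RAGE deletion without diabetes put 2 of the 42 genes, Mmp8 and Adamts12, at an unadjusted p under 0.05, or 4.76%, beside 2.62% of all genes. Both were lower and 0 higher, beside 1.28% and 1.34% of all genes. Of the 30 above background it was 1, or 3.33%, beside 2.6%. Diabetes in ApoE-/- RAGE-/- aorta put 5 there, or 11.9%, beside 7.71% of all genes: Mmp3, Timp1 and Adamts5 higher, and Mmp16 and Adamts9 lower (3.74% and 3.97% of all genes). All 5 were above background, where they made 16.7%, beside 9.35%. Without replicates 9 and 10 that count was 3 (Mmp16, Adamts9 and Adamts1), all lower, beside 4.24% of all genes. The interaction, which asks whether the effect of diabetes differed with genotype, put 4 genes there, or 9.52%, beside 8.57% of all genes, with 2 above 0 and 2 below (2.41% and 6.16% of all genes). Of the 30 above background it was 3, or 10.0%, beside 10.9%. The 4 were Mmp8, Timp4, Adamtsl3 and Mmp16, each with an adjusted p of 0.675 (limma). Without replicates 9 and 10 the count was again 4, beside 11% of all genes, with Mmp3 in place of Timp4.

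**Figure D1:**
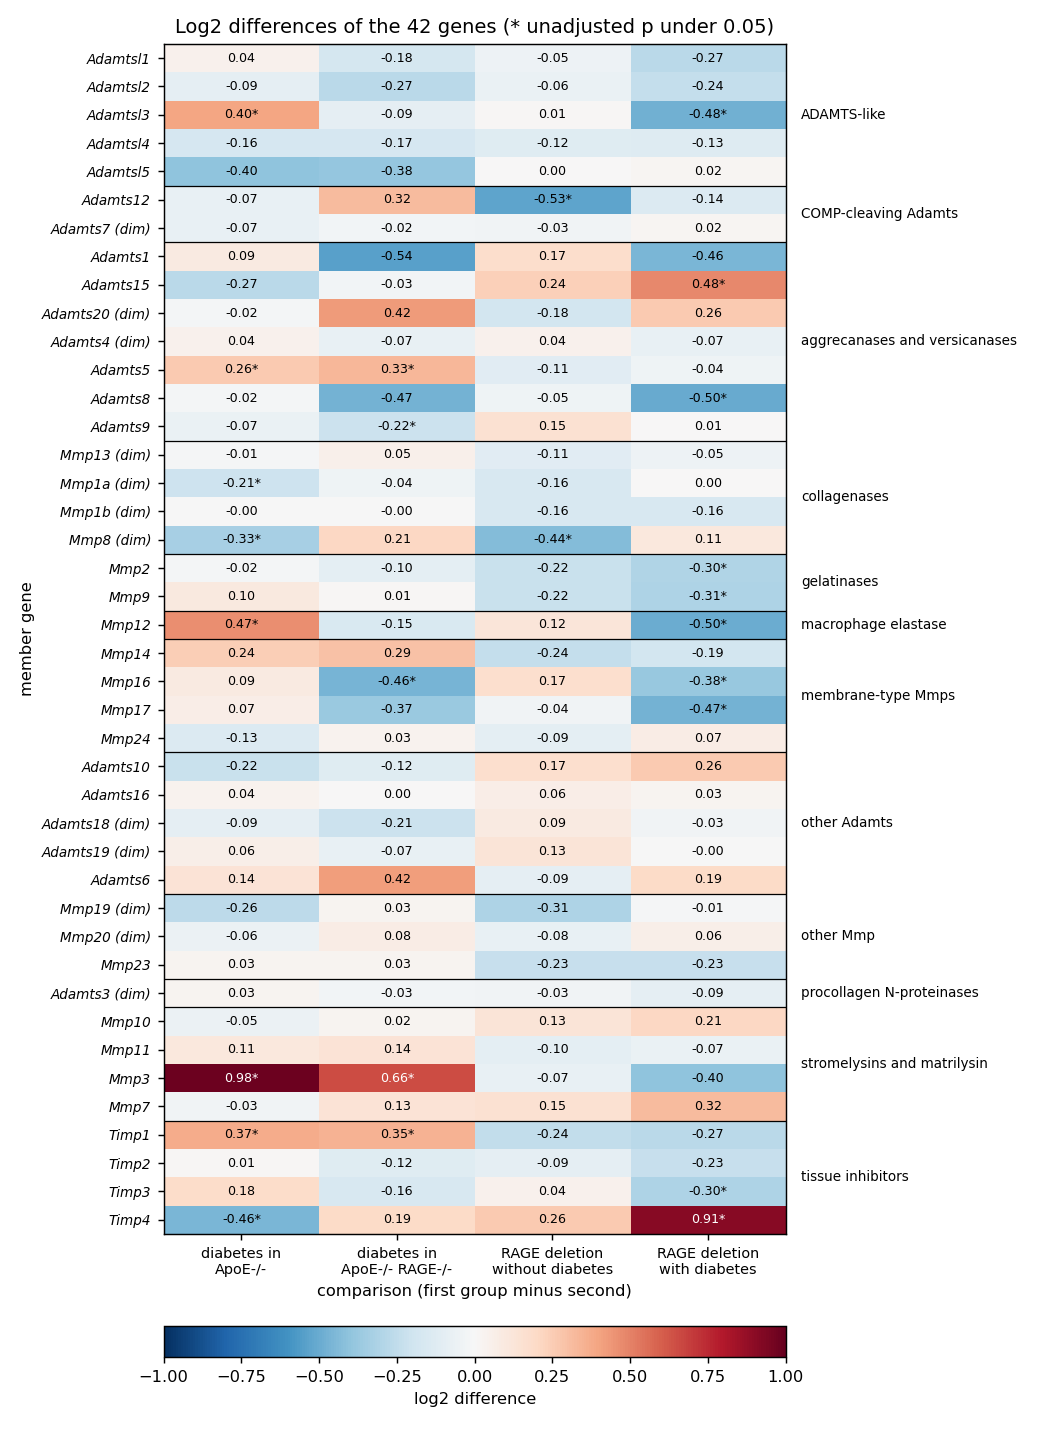
Log2 differences of group means for the 42 genes (rows, by role, with dim ones marked) in the 4 pairwise comparisons (columns), with blue for lower, red for higher and an asterisk for an unadjusted p under 0.05. Mmp3 with diabetes in ApoE-/- (0.98) and Timp4 with RAGE deletion in diabetes (0.91) are the largest positive differences.

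The tissue inhibitors were all above background and did not share a direction. Timp4, an inhibitor known for its expression in heart and fat, read 7.93, 8.83, 7.86 and 8.09 in diabetic ApoE-/- aorta. Non-diabetic ApoE-/- aorta read 8.87, 8.52, 8.30 and 8.87. The diabetic ApoE-/- RAGE-/- arrays read 9.11, 9.23, 9.14 and 8.89, and the non-diabetic ApoE-/- RAGE-/- arrays 8.83, 8.85 and 9.02. Of the diabetic ApoE-/- arrays 3 lay below every other array of the series, and the remaining one, replicate 2, lay among the non-diabetic readings. All 4 diabetic ApoE-/- RAGE-/- arrays lay above all 4 diabetic ApoE-/- arrays. In that comparison the former group lay wholly above the latter for 1 of the 42 genes, beside 339 of all 18193 genes. In either direction the groups did not overlap for 2 of the 42 genes, beside 7.73% of all genes.

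With diabetes, Timp4 was higher by 0.91 ± 0.19 (SE; 1.88-fold, 95% interval 0.52 to 1.31) in ApoE-/- RAGE-/- than in ApoE-/- aorta, with n = 4 in both groups, an adjusted p of 0.0577 (limma) and an exact two-sided permutation p of 0.0286, the smallest that 4 against 4 arrays can give. Without replicates 9 and 10 the difference was 0.84 ± 0.24, with an adjusted p of 0.130 (limma). The call turned on single settings: without diabetic ApoE-/- replicate 2 it was 1.13, with an adjusted p of 0.00856 (limma), and over all single-array omissions the adjusted p ran from 0.00856 to 0.216. The second Timp4 probe set differed by 0.81. The difference with diabetes was -0.46 ± 0.19 in ApoE-/- mice (adjusted p 0.416, limma) and 0.19 ± 0.20 in ApoE-/- RAGE-/- mice (adjusted p 0.851, limma; 0.11 without replicates 9 and 10). The difference between these responses, 0.65 ± 0.27, had an adjusted p of 0.675 (limma), and it was 0.57 ± 0.32 without replicates 9 and 10 (adjusted p 0.615, limma). Replicates 9 and 10, which read like ApoE-/- arrays for the genotype markers, had Timp4 levels of 9.11 and 9.23. Replicates 11 and 12 read 9.14 and 8.89, and the highest array labelled diabetic ApoE-/- read 8.83. Were replicates 9 and 10 ApoE-/- arrays, the genotypes would thus overlap for Timp4 with diabetes. The difference with them counted as ApoE-/- was not tested.

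**Figure D2:**
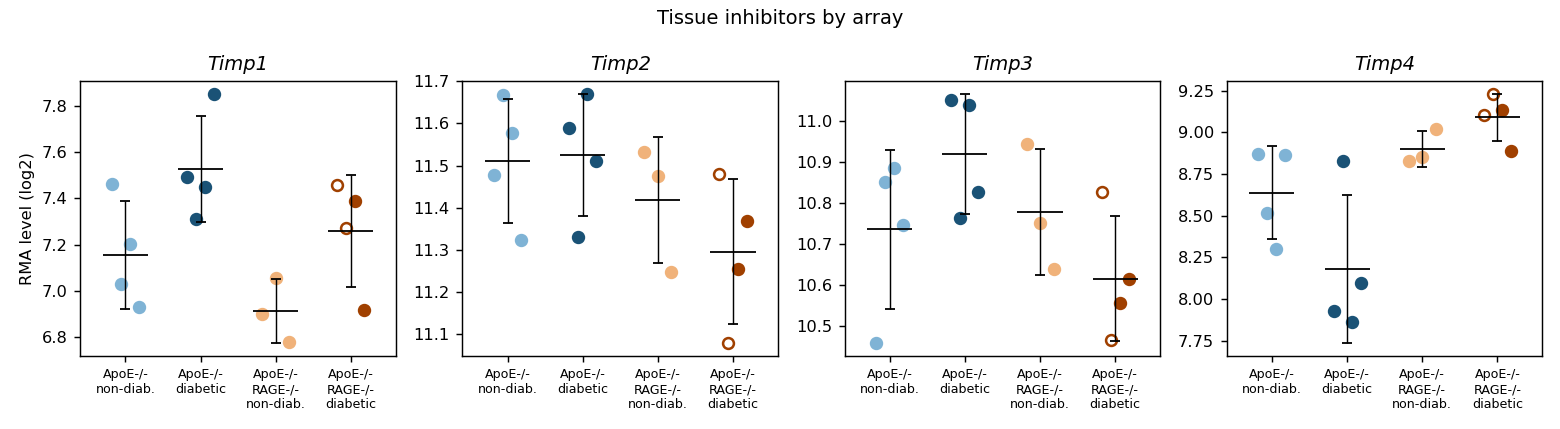
RMA levels (log2) of the 4 tissue inhibitors by array in the 4 groups, with bars at the mean ± SD and open circles for replicates 9 and 10. Timp4 read 8.89 to 9.23 in diabetic ApoE-/- RAGE-/- aorta and 7.86 to 8.83 in diabetic ApoE-/- aorta, while the groups overlapped for Timp1, Timp2 and Timp3.

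Fat markers moved with Timp4 in part of the series. The mean level of 4 white adipocyte markers, of 5 listed, all above background, ran from 8.01 to 8.67 in diabetic ApoE-/-, 8.60 to 8.89 in non-diabetic ApoE-/-, 8.27 to 9.11 in diabetic ApoE-/- RAGE-/- and 8.62 to 9.30 in non-diabetic ApoE-/- RAGE-/- arrays. The 4 of 4 brown adipocyte markers ran from 9.05 to 10.69, 10.65 to 11.42, 9.82 to 11.38 and 10.47 to 11.24 in the same order. Diabetic ApoE-/- replicate 2, with the highest Timp4 of its group, had the highest fat markers of its group (8.67 and 10.69). Replicates 9 and 10 had white adipocyte markers of 8.35 and 8.27, inside the range of the diabetic ApoE-/- arrays, and Timp4 levels of 9.11 and 9.23, above it. All 7 skeletal muscle markers were also measured, and their mean ran from 7.16 to 9.06 in diabetic ApoE-/- RAGE-/- and from 4.84 to 7.87 in diabetic ApoE-/- arrays. Without diabetes it ran from 3.90 to 4.72 in ApoE-/- RAGE-/- and from 3.95 to 7.47 in ApoE-/- arrays. The 5 of 5 cardiac muscle markers ran from 7.53 to 9.10 in diabetic ApoE-/- RAGE-/- and from 6.70 to 8.31 in diabetic ApoE-/- arrays. Without diabetes they ran from 5.98 to 7.93 in ApoE-/- RAGE-/- and from 5.48 to 11.40 in ApoE-/- arrays, with the highest in replicate 8. In whole aorta, fewer cells of a type and less RNA per cell cannot be told apart, and the part of these cells in the Timp4 result was not tested.

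**Figure D3:**
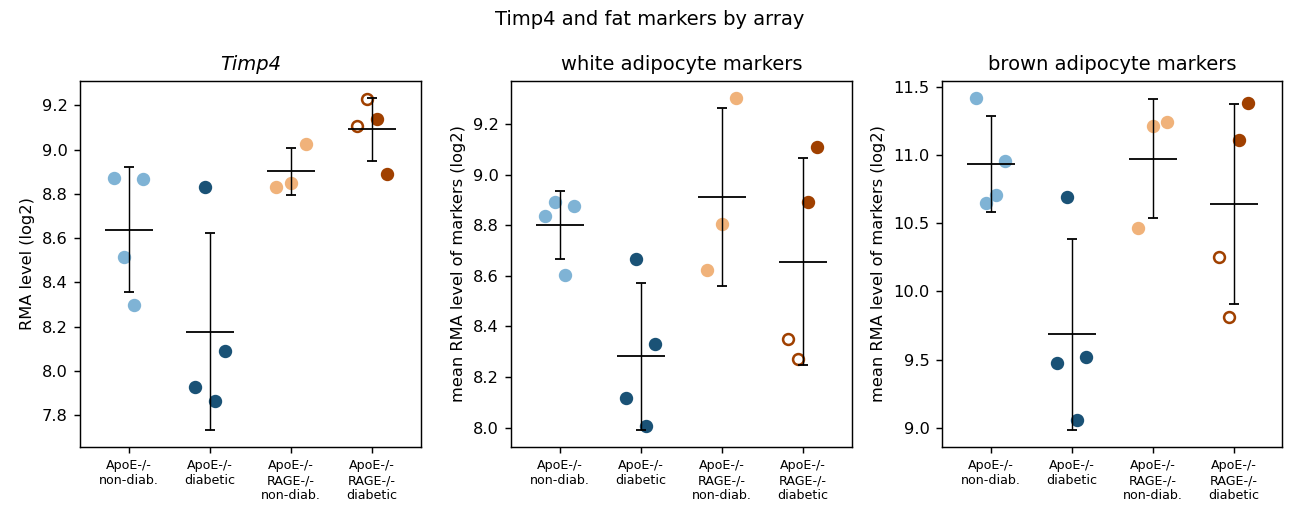
Timp4 and the mean level of white and of brown adipocyte markers (log2) by array, with bars at the mean ± SD and open circles for replicates 9 and 10. Those 2 arrays read 9.11 and 9.23 for Timp4 with white adipocyte markers of 8.35 and 8.27.

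Timp1, a secreted inhibitor that is induced by cytokines and growth factors, read 7.49, 7.31, 7.45 and 7.85 in diabetic ApoE-/- aorta and 7.46, 7.03, 7.20 and 6.93 without diabetes. In ApoE-/- RAGE-/- aorta it read 7.46, 7.27, 7.39 and 6.92 with diabetes and 6.90, 7.06 and 6.78 without. The diabetic and non-diabetic ranges overlapped in both genotypes. The difference with diabetes was 0.37 ± 0.15 in ApoE-/- (adjusted p 0.404, limma) and 0.35 ± 0.16 in ApoE-/- RAGE-/- mice (adjusted p 0.686, limma). The latter was 0.24 ± 0.19 without replicates 9 and 10.

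Timp3, which binds to the matrix and also inhibits Adam17 and the aggrecanases, read 11.05, 10.76, 11.04 and 10.83 in diabetic ApoE-/- and 10.83, 10.47, 10.56 and 10.61 in diabetic ApoE-/- RAGE-/- aorta. The non-diabetic arrays read 10.46, 10.85, 10.89 and 10.75 in ApoE-/- and 10.94, 10.75 and 10.64 in ApoE-/- RAGE-/- mice. The diabetic groups overlapped at a single reading, replicate 9. RAGE deletion with diabetes gave -0.30 ± 0.11 (adjusted p 0.229, limma) and -0.34 without replicates 9 and 10. All 4 Timp3 probe sets had this sign, from -0.52 to -0.30.

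Timp2, which both inhibits Mmp2 and takes part in its activation at the cell surface, read 11.59, 11.33, 11.67 and 11.51 in diabetic ApoE-/- aorta and 11.48, 11.67, 11.58 and 11.32 in non-diabetic ApoE-/- aorta. The ApoE-/- RAGE-/- arrays read 11.48, 11.08, 11.25 and 11.37 with diabetes and 11.53, 11.48 and 11.25 without. All groups overlapped. The difference with diabetes in ApoE-/- mice was 0.01 (95% interval -0.22 to 0.25), and with RAGE deletion in diabetes it was -0.23 (adjusted p 0.346, limma; -0.21 without replicates 9 and 10). In the latter comparison 5 of 6 Timp2 probe sets were lower, by -0.75 to -0.21, and the sixth, below background, read 0.09 higher. Each of the 5 except the one used was at an unadjusted p under 0.05.

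Among the stromelysins and matrilysin, all 4 above background, only Mmp3 had a difference at an unadjusted p under 0.05 when all arrays were used. Mmp3, or stromelysin-1, cuts proteoglycans and fibronectin and activates other Mmp precursors. It read 9.18, 8.87, 8.57 and 9.02 in diabetic ApoE-/- aorta and 8.08, 7.78, 7.78 and 8.07 in non-diabetic ApoE-/- aorta. All 4 diabetic arrays lay above all 4 non-diabetic ones, as held for 2 of the 42 genes, beside 822 of all 18193 genes. In either direction the groups did not overlap for 2 of the 42 genes, beside 7.62% of all genes. The difference was 0.98 ± 0.26 (SE; 1.98-fold, 95% interval 0.42 to 1.55) with an adjusted p of 0.310 (limma) and an exact two-sided permutation p of 0.0286, the smallest possible. 

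In ApoE-/- RAGE-/- aorta Mmp3 read 9.23, 8.78, 8.56 and 7.49 with diabetes and 7.81, 7.98 and 7.79 without. Of the diabetic arrays 3 lay above all non-diabetic arrays, and replicate 12 lay below them. The difference with diabetes was 0.66 ± 0.29 (adjusted p 0.681, limma), but 0.17 ± 0.25 without replicates 9 and 10, the 2 highest. Between the diabetic groups the difference was -0.40 ± 0.26 (adjusted p 0.518, limma) with all arrays and -0.89 ± 0.24 (adjusted p 0.119, limma) without those 2. The interaction was -0.33 ± 0.39 (adjusted p 0.874, limma) and -0.82 ± 0.32 (adjusted p 0.575, limma) respectively. In all these comparisons the size of the Mmp3 difference thus rested on replicates 9 and 10. Without diabetes, RAGE deletion gave -0.07 (95% interval -0.68 to 0.54).

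Macrophage markers, 6 of 6 measured and above background, averaged 7.18 to 7.73 in diabetic ApoE-/-, 7.12 to 7.38 in non-diabetic ApoE-/-, 7.23 to 8.23 in diabetic ApoE-/- RAGE-/- and 6.95 to 7.25 in non-diabetic ApoE-/- RAGE-/- arrays. Fibroblast markers averaged 10.49 to 10.58 and 10.35 to 10.60 in diabetic and non-diabetic ApoE-/- arrays. The part of either cell type in the Mmp3 result was not tested. Mmp10, the neighbouring stromelysin-2 gene, differed by -0.05 (95% interval -0.29 to 0.18) with diabetes in ApoE-/- aorta. With RAGE deletion in diabetes Mmp10 differed by 0.21 ± 0.11 (adjusted p 0.403, limma), and by 0.37 ± 0.12 without replicates 9 and 10 (adjusted p 0.153, limma). With diabetes in ApoE-/- aorta Mmp7, or matrilysin, differed by -0.03 (-0.42 to 0.35) and Mmp11 by 0.11 (-0.23 to 0.45).

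Mmp12, the macrophage elastase, read 3.65, 4.19, 3.97 and 4.43 in diabetic ApoE-/- and 3.78, 3.65, 3.74 and 3.21 in non-diabetic ApoE-/- aorta, close to the background of 3.47. In ApoE-/- RAGE-/- mice it read 3.58, 3.39, 3.64 and 3.65 with diabetes and 3.37, 4.32 and 3.46 without. The highest readings were spread over a diabetic ApoE-/- and a non-diabetic ApoE-/- RAGE-/- array. The difference was 0.47 ± 0.20 with diabetes in ApoE-/- mice (adjusted p 0.447, limma) and -0.50 ± 0.20 with RAGE deletion in diabetes (adjusted p 0.269, limma), the latter -0.42 without replicates 9 and 10 (adjusted p 0.464, limma).

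The collagenases were all below background. Mmp8, the neutrophil collagenase, read 3.68, 3.28, 3.61 and 3.56 in non-diabetic ApoE-/- aorta, 3.36, 3.03, 3.32 and 3.09 with diabetes, and 2.89, 3.11 and 3.28 in non-diabetic ApoE-/- RAGE-/- aorta. The diabetic ApoE-/- RAGE-/- arrays read 3.28, 3.30, 3.30 and 3.35. Only the non-diabetic ApoE-/- group reached above background. Its interaction of 0.54 ± 0.16 was the one with the smallest p of the 42, and its adjusted p was 0.675 (limma); without replicates 9 and 10 it was 0.56 ± 0.19.

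The gelatinases, Mmp2 and Mmp9, cut denatured collagens, type IV collagen and elastin. Mmp2 read 9.05, 9.07, 9.23 and 9.12 in diabetic ApoE-/- aorta and 8.94, 8.65, 9.09 and 8.61 in diabetic ApoE-/- RAGE-/- aorta. The non-diabetic arrays read 9.25, 9.11, 9.22 and 8.98 in ApoE-/- and 8.99, 8.93 and 8.83 in ApoE-/- RAGE-/- mice. The genotypes overlapped by single arrays in both disease states. RAGE deletion gave -0.30 ± 0.10 with diabetes (adjusted p 0.201, limma; -0.27 without replicates 9 and 10) and -0.22 ± 0.11 without diabetes (adjusted p 1.00, limma). Diabetes in ApoE-/- mice gave -0.02 (95% interval -0.25 to 0.20).

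Mmp9 read 4.67, 5.10, 5.11 and 4.95 in diabetic ApoE-/- and 4.45, 4.70, 4.65 and 4.80 in diabetic ApoE-/- RAGE-/- aorta. Without diabetes it read 4.99, 4.97, 4.81 and 4.67 in ApoE-/- and 4.37, 4.80 and 4.75 in ApoE-/- RAGE-/- mice. A single ApoE-/- array in each disease state lay inside the ApoE-/- RAGE-/- range. RAGE deletion with diabetes gave -0.31 ± 0.12 (adjusted p 0.263, limma), and -0.23 without replicates 9 and 10. For both gelatinases the other probe set had the same sign in that comparison, and the second Mmp9 probe set was below background. Neutrophil markers, of which 5 of 6 were measured and above background, averaged 4.02 to 4.38 in diabetic ApoE-/- and 4.17 to 5.64 in diabetic ApoE-/- RAGE-/- arrays, and these ranges overlapped. The part of these cells was not tested.

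The 4 membrane-type enzymes measured act at the cell surface. Mmp14, which activates the Mmp2 precursor together with Timp2, read 6.96, 6.68, 6.98 and 6.62 in diabetic ApoE-/- and 6.77, 6.53, 6.65 and 6.32 in non-diabetic ApoE-/- aorta. In ApoE-/- RAGE-/- mice it read 6.79, 6.96, 6.50 and 6.26 with diabetes and 6.24, 6.46 and 6.29 without. Replicates 9 and 10 were the highest of their group. The difference with diabetes was 0.24 ± 0.14 in ApoE-/- mice (adjusted p 0.571, limma) and 0.29 ± 0.16 in ApoE-/- RAGE-/- mice (adjusted p 0.711, limma), the latter 0.05 without those 2 arrays. RAGE deletion with diabetes gave -0.19 ± 0.14 (adjusted p 0.598, limma), and -0.43 ± 0.14 without them (adjusted p 0.165, limma). Of 3 Mmp14 probe sets, all above background, 2, the one used among them, shared the sign in these 3 comparisons with all arrays. The remaining one gave -0.16, -0.05 and 0.02 in the same order.

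Mmp16, a membrane-anchored enzyme, read 5.65, 5.14, 5.83 and 5.45 in diabetic ApoE-/- and 5.50, 4.92, 5.04 and 5.11 in diabetic ApoE-/- RAGE-/- aorta. It read 5.29, 5.40, 5.61 and 5.42 in non-diabetic ApoE-/- and 5.81, 5.43 and 5.57 in non-diabetic ApoE-/- RAGE-/- aorta. Of the diabetic ApoE-/- RAGE-/- arrays 3 lay below all the others. The difference of all 4 from non-diabetic ApoE-/- RAGE-/- arrays was -0.46 ± 0.16 (adjusted p 0.674, limma), or -0.53 ± 0.18 without replicates 9 and 10, and from diabetic ApoE-/- arrays -0.38 ± 0.15 (adjusted p 0.259, limma), or -0.44 without them. Of 4 Mmp16 probe sets 3 were above background, and only the one used was at an unadjusted p under 0.05 in these comparisons or the interaction. Another above background gave -0.18 against non-diabetic ApoE-/- RAGE-/- and 0.03 against diabetic ApoE-/- arrays. The remaining one gave -0.16 and -0.27. Their interactions were 0.04 and -0.48, beside -0.55 in the one used.

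Mmp17, which is held by a lipid anchor, read 7.60, 6.95, 7.79 and 7.19 in diabetic ApoE-/- and 7.18, 6.75, 6.64 and 7.06 in diabetic ApoE-/- RAGE-/- aorta. The non-diabetic arrays read 7.18, 7.53, 7.48 and 7.06 in ApoE-/- and 7.33, 7.44 and 7.06 in ApoE-/- RAGE-/- mice. The lowest 2 readings were those of replicates 10 and 11. RAGE deletion with diabetes gave -0.47 ± 0.18 (adjusted p 0.234, limma), and -0.53 without replicates 9 and 10. Mmp24 differed in that comparison by 0.07 (95% interval -0.18 to 0.32), and by 0.15 without them.

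Mmp23, an enzyme released from the membrane by cleavage, and Mmp19 showed no difference at an unadjusted p under 0.05 in the probe set used. Mmp23 read 9.12, 8.88, 9.45 and 9.45 in diabetic and 9.52, 9.24, 9.18 and 8.83 in non-diabetic ApoE-/- aorta, and 9.30, 9.00, 8.88 and 8.81 in diabetic and 9.07, 9.04 and 8.79 in non-diabetic ApoE-/- RAGE-/- aorta. Mmp19, at background, read 3.45, 3.62, 3.16 and 3.28 in diabetic and 3.95, 3.35, 3.71 and 3.55 in non-diabetic ApoE-/- aorta, and 3.50, 2.97, 3.51 and 3.47 in diabetic and 3.22, 3.21 and 3.57 in non-diabetic ApoE-/- RAGE-/- aorta. Within each genotype the groups overlapped for both genes. The second probe set of each differed at that level: for Mmp23, also above background, by -0.54 with RAGE deletion in diabetes, where the one used gave -0.23 (-0.38 without replicates 9 and 10), and for Mmp19, below background, by -0.37 with diabetes in ApoE-/- mice, where the one used gave -0.26.

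**Figure D4:**
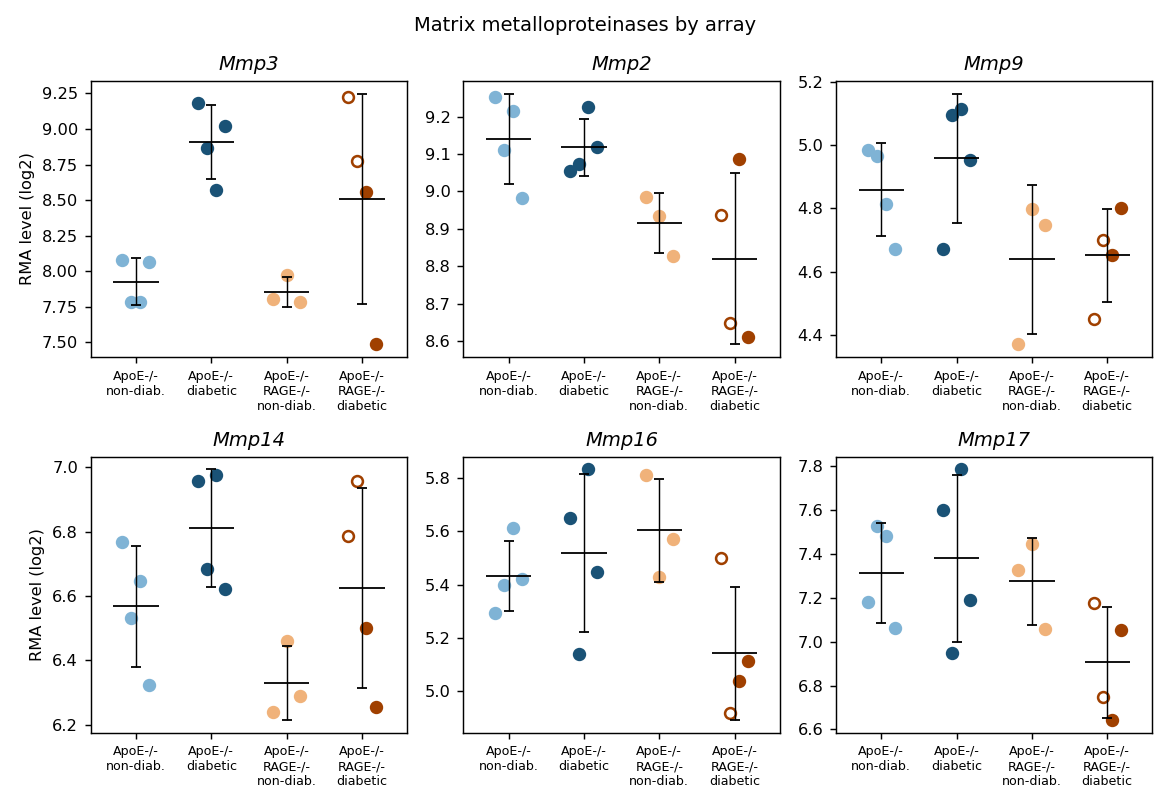
RMA levels (log2) of 6 matrix metalloproteinases by array in the 4 groups, with bars at the mean ± SD and open circles for replicates 9 and 10. Mmp3 read 8.57 to 9.18 in diabetic and 7.78 to 8.08 in non-diabetic ApoE-/- aorta, while Mmp2 and Mmp9 overlapped between all groups that share a disease state.

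The Adamts proteases that cut aggrecan and versican, the large proteoglycans of the arterial wall, were measured for 7 genes, 5 above background. Adamts5 read 7.81, 7.64, 7.96 and 7.66 in diabetic ApoE-/- aorta and 7.25, 7.60, 7.56 and 7.62 in non-diabetic ApoE-/- aorta. All 4 diabetic arrays lay above all 4 non-diabetic ones, by a narrow margin. The difference was 0.26 ± 0.12 (adjusted p 0.466, limma; exact two-sided permutation p 0.0286), and all 4 Adamts5 probe sets shared the sign. In ApoE-/- RAGE-/- aorta it read 8.01, 7.75, 7.68 and 7.46 with diabetes and 7.49, 7.39 and 7.31 without. The difference was 0.33 ± 0.13 (adjusted p 0.674, limma) and 0.17 ± 0.14 without replicates 9 and 10.

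Adamts1, which also cleaves versican, read 9.33, 8.96, 9.97 and 9.86 in diabetic ApoE-/- and 9.59, 9.04, 8.49 and 9.18 in diabetic ApoE-/- RAGE-/- aorta. It read 8.79, 9.60, 9.87 and 9.51 in non-diabetic ApoE-/- and 9.64, 9.73 and 9.48 in non-diabetic ApoE-/- RAGE-/- aorta. The spread within groups was wide. Diabetes in ApoE-/- RAGE-/- mice gave -0.54 ± 0.29 (adjusted p 0.711, limma), and -0.78 ± 0.33 without replicates 9 and 10. RAGE deletion with diabetes gave -0.46 ± 0.27 (adjusted p 0.451, limma), and -0.70 ± 0.31 without them (adjusted p 0.285, limma).

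Adamts8 lay lower in all 4 diabetic than in all 3 non-diabetic ApoE-/- RAGE-/- arrays, at 6.27, 6.17, 6.23 and 6.53 against 6.86, 6.88 and 6.59. In ApoE-/- mice it read 6.71, 6.44, 7.44 and 6.62 with diabetes and 6.37, 7.14, 7.17 and 6.61 without, so that the ranges overlapped. The differences were -0.47 ± 0.23 (adjusted p 0.692, limma) in ApoE-/- RAGE-/- mice with diabetes and -0.50 ± 0.21 (adjusted p 0.277, limma) with RAGE deletion in diabetes. They were -0.39 ± 0.28 and -0.42 ± 0.27 without replicates 9 and 10 (adjusted p 0.477 for the latter, limma).

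Adamts9 was the other of the 2 genes whose groups did not overlap in that comparison, beside 6.68% of all genes. It read 7.25, 7.21, 7.004 and 7.20 with diabetes and 7.26, 7.58 and 7.31 without, a difference of -0.22 ± 0.09 (adjusted p 0.674, limma), or -0.28 ± 0.11 without replicates 9 and 10. In ApoE-/- aorta it read 7.10, 7.14, 7.20 and 7.21 with diabetes and 7.29, 7.21, 7.20 and 7.21 without. The upper end of the non-diabetic ApoE-/- RAGE-/- group came from 1 array, and the mean over all Adamts9 probe sets turned the direction, to 0.031.

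Adamts15, another proteoglycan-cleaving enzyme, read 6.74, 6.67, 6.34 and 5.89 in diabetic ApoE-/- and 6.88, 7.27, 6.30 and 7.11 in diabetic ApoE-/- RAGE-/- aorta. Without diabetes it read 6.41, 6.75, 6.88 and 6.66 in ApoE-/- and 7.15, 7.02 and 6.59 in ApoE-/- RAGE-/- mice. The diabetic groups overlapped and differed by 0.48 ± 0.22 (adjusted p 0.320, limma). The difference was 0.29 ± 0.26 without replicates 9 and 10 (adjusted p 0.636, limma).

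Adamts12, which cleaves cartilage oligomeric matrix protein, read 5.88, 5.66, 5.65 and 5.57 in non-diabetic ApoE-/- aorta and 5.22, 4.98 and 5.29 in non-diabetic ApoE-/- RAGE-/- aorta. It was the only one of the 42 genes whose groups did not overlap with RAGE deletion without diabetes, beside 4.87% of all genes. The difference was -0.53 ± 0.18 (95% interval -0.91 to -0.14), with an adjusted p of 1.00 (limma) and an exact two-sided permutation p of 0.0286, the smallest that 4 against 3 arrays can give. With diabetes it read 5.07, 5.85, 5.84 and 5.71 in ApoE-/- and 5.33, 5.47, 5.86 and 5.26 in ApoE-/- RAGE-/- aorta, and the groups overlapped, with a difference of -0.14 ± 0.17 (adjusted p 0.768, limma; -0.06 without replicates 9 and 10).

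Adamts10, which binds fibrillin microfibrils, read 8.10, 7.80, 8.16 and 7.78 in diabetic ApoE-/- and 8.57, 7.86, 8.18 and 8.30 in diabetic ApoE-/- RAGE-/- aorta. It read 8.04, 8.25, 8.32 and 8.11 in non-diabetic ApoE-/- and 8.45, 8.43 and 8.16 in non-diabetic ApoE-/- RAGE-/- aorta. The groups overlapped in all 4 pairwise comparisons, and the largest difference was 0.26 ± 0.14 with RAGE deletion in diabetes (adjusted p 0.399, limma; 0.28 without replicates 9 and 10). The gene lies on chromosome 17, as Ager does, and its second probe set, also above background, gave -0.04 in that comparison. Adamts16 and Adamts6 differed there by 0.03 and 0.19 (0.15 and -0.01 without them), with intervals that include 0.

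Among the 5 Adamts-like genes, 4 were lower with RAGE deletion in diabetes, beside 50.6% of all genes. Only Adamtsl3 was at an unadjusted p under 0.05, 1 of 5 beside 11.3% of all genes lower at that level. Adamtsl3 read 7.49, 7.16, 7.78 and 7.56 in diabetic ApoE-/- aorta and 6.83, 7.21, 7.26 and 7.09 in non-diabetic ApoE-/- aorta. The ApoE-/- RAGE-/- arrays read 7.15, 6.91, 7.09 and 6.92 with diabetes and 7.26, 7.03 and 7.03 without. The diabetic ApoE-/- group was the high one, and all 4 of its arrays lay above all 4 diabetic ApoE-/- RAGE-/- arrays by a narrow margin.

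The difference with RAGE deletion in diabetes was -0.48 ± 0.13 (95% interval -0.75 to -0.21), with an adjusted p of 0.110 (limma) and an exact two-sided permutation p of 0.0286. It was -0.49 ± 0.16 without replicates 9 and 10 (adjusted p 0.165, limma) and over single-array omissions it ran from -0.59 without diabetic ApoE-/- replicate 2 (adjusted p 0.0297, limma) to -0.38 without diabetic ApoE-/- replicate 3, with an adjusted p of up to 0.346 (limma). Diabetes in ApoE-/- mice gave 0.40 ± 0.13 (adjusted p 0.347, limma), and in ApoE-/- RAGE-/- mice -0.09 ± 0.14. Adamtsl1, Adamtsl2 and Adamtsl4 differed by -0.27, -0.24 and -0.13 with RAGE deletion in diabetes, and by -0.15, -0.18 and -0.07 without replicates 9 and 10. Adamtsl5 read 7.41, 6.56, 7.40 and 7.02 in diabetic ApoE-/- and 7.57, 7.54, 7.68 and 7.21 in non-diabetic ApoE-/- aorta, a difference of -0.40 ± 0.19 (adjusted p 0.482, limma). It read 7.47, 6.99, 6.78 and 7.25 in diabetic and 7.68, 7.63 and 7.21 in non-diabetic ApoE-/- RAGE-/- aorta, where the difference was -0.38 ± 0.21 (-0.49 without replicates 9 and 10). The second Adamtsl5 probe set, also above background, gave -0.63 there, at an unadjusted p under 0.05. With RAGE deletion in diabetes that probe set gave -0.35, where the one used gave 0.02.

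**Figure D5:**
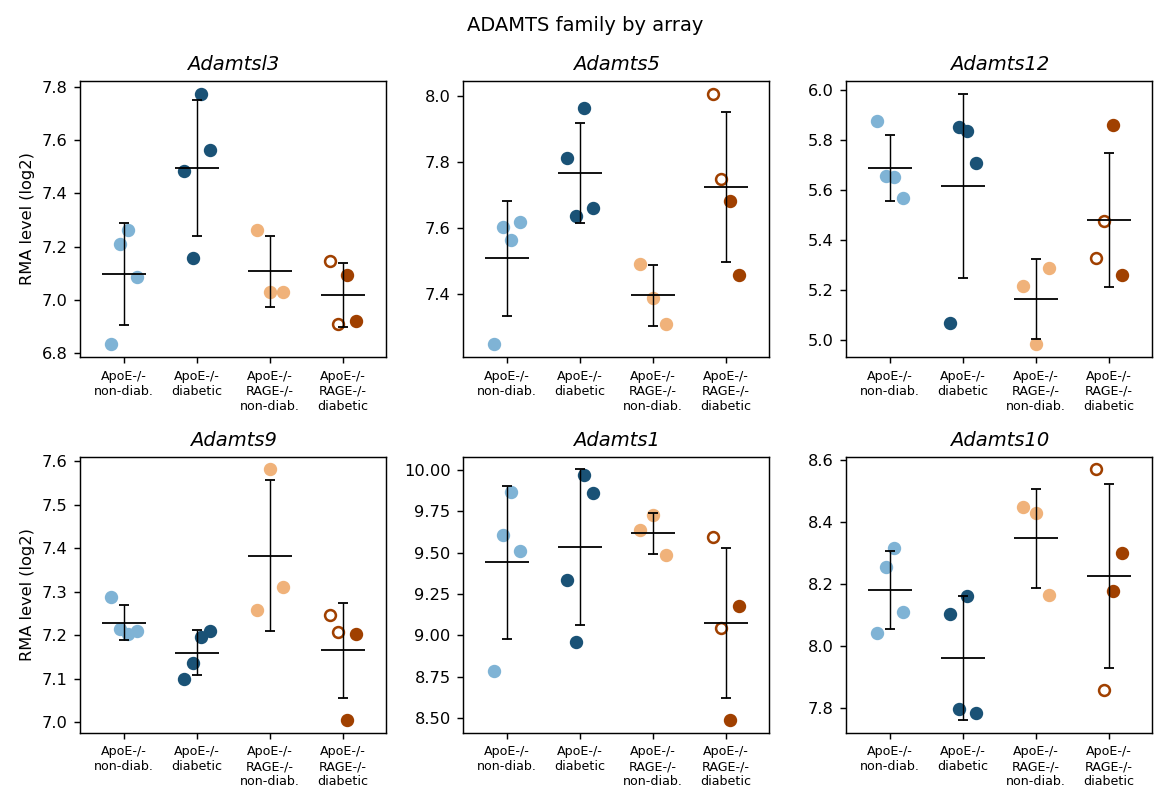
RMA levels (log2) of 6 Adamts and Adamts-like genes by array in the 4 groups, with bars at the mean ± SD and open circles for replicates 9 and 10. Adamtsl3 read 7.16 to 7.78 in diabetic ApoE-/- and 6.91 to 7.15 in diabetic ApoE-/- RAGE-/- aorta, and Adamts12 read 4.98 to 5.29 in non-diabetic ApoE-/- RAGE-/- and 5.57 to 5.88 in non-diabetic ApoE-/- aorta.

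Other genes that act with these enzymes were read from 6 lists: the plasminogen system, other inhibitors and regulators, cathepsins and cystatin, sheddases, matrix substrates and inducers. In none of the lists did a gene pass the adjusted p (limma) in either direction, in any comparison. With RAGE deletion in diabetes, 12 of 13 measured substrates were lower, beside 50.6% of all genes, with a median of -0.33. Of them 6 were lower at an unadjusted p under 0.05 and 0 higher, beside 11.3% and 6.62% of all genes. Since 12 of the 13 were above background, the genes above background are the closer measure. Of those 13149 genes, 53% were below 0, and 1961 were lower and 1054 higher at that level. The plasminogen system had 2 of 5 lower at that level, the inducers 4 of 8, the cathepsins 2 of 6, the regulators 1 of 9 and the sheddases 1 of 8, beside the same 11.3%, and none of these 5 lists had a gene higher at that level. Single genes of 8 or 9 are near the share of all genes. Without replicates 9 and 10, 11 of 13 substrates were lower, 2 of them at that level beside 10.4% of all genes, with a median of -0.16. The plasminogen system then had 2 lower, the inducers 2, the cathepsins 1, the regulators 2 and the sheddases 0. The regulators, cathepsins and sheddases each had 1 higher, beside 10.6% of all genes. With all arrays the smallest p among them belonged to Reck, a membrane-anchored Mmp inhibitor, at -0.49 ± 0.10 (adjusted p 0.0632, limma; 0.119 without replicates 9 and 10). Plaur, the urokinase receptor, gave -0.59 ± 0.13 (adjusted p 0.0659, limma), and Eln, which encodes elastin, -0.89 ± 0.20 (adjusted p 0.0671, limma), and without replicates 9 and 10 they gave -0.70 ± 0.16 and -0.78 ± 0.25 (adjusted p 0.105 and 0.156, limma). Smooth muscle markers, 4 of 4 measured, averaged 12.03 to 12.42 in diabetic ApoE-/- RAGE-/- and 12.32 to 12.66 in diabetic ApoE-/- arrays. Their part in these lists was not tested.

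Diabetes in ApoE-/- mice put 2 of 5 genes of the plasminogen system and 2 of 9 regulators higher at an unadjusted p under 0.05, beside 7.27% of all genes. The cathepsins had 1 of 6 higher and 1 lower, the sheddases 1 of 8 higher, the inducers 1 of 8 higher, and the substrates 0 of 13 in either direction. Plaur was higher by 0.52 ± 0.13 (adjusted p 0.288, limma), and Cd44, a hyaluronan receptor that docks Mmp9 at the cell surface, by 0.58 ± 0.19 (adjusted p 0.360, limma). Reck was higher by 0.29 ± 0.10 (adjusted p 0.368, limma).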

How the data were processed

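RNA of 15 mouse aortas was measured on Affymetrix arrays. The values deposited are on the log2 scale and were computed with RMA, of no stated version, per the submitters' processing notes; whether all arrays were normalized in 1 run is not given in the sources used here. One non-diabetic ApoE-/- RAGE-/- sample was lost before hybridization, per the same notes. The values were used as deposited. The 45101 probe sets included 64 controls, which were dropped, leaving 45037. By the array annotation 34945 had exactly 1 gene, 932 had several and 9160 had no gene name here, and 34741 matched the reference gene table (GRCm38.p6) by Entrez ID. All differences come from a single limma fit (3.58.1, R 4.3.3) to all 15 arrays with a mean for each group, and p-values were adjusted by Benjamini-Hochberg over the 45037 probe sets. For single genes an exact two-sided permutation test over arrays was added. With 4 against 4 arrays, groups that do not overlap always give its smallest p, so there it only restates the non-overlap.

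The members and lists were chosen with earlier results of these data known. Values in every array are given for the members with the 5 smallest p in each pairwise comparison and the 3 smallest in the interaction, the 10 with the highest mean, Mmp2, Mmp9, Mmp14 and the Timp genes; Mmp12, Adamts8 and Adamts15 were added after their values were seen. Tested on simulated data in which 200 of the 45037 probe sets were shifted, the comparison of RAGE deletion with diabetes recovered 38.8%, 85.1% and 98.0% of log2 changes of 0.5, 1 and 2. The simulated noise was normal and independent between probe sets and arrays. No simulated array read like another genotype or carried signal of other tissues, so these rates need not hold for the real arrays. Promoter sequences are RefSeq's (GRCm38.p6), found for 27 of 42 genes. Plots used Python 3.11.15 and matplotlib 3.10.9. Alternatives were another threshold (B above 0, the submitters' own), only the compared groups in the fit, a filter on dim probe sets, array weights, a trended robust variance prior, centring on the median, quantile normalization, other rules for the probe set of a gene, and leaving out each array or replicates 9 and 10.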

Additional observations from a re-analysis of the deposited data

Results flagged for a closer look

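In 69 groups of 4 arrays (the 23 genes given by array, in each group of that size), 3 had 1 array whose gap to the others exceeded Dixon's 95% critical value for 4 arrays, where chance gives about 1 in 20. Adamts5 read 7.25 in non-diabetic ApoE-/- replicate 5 and 7.56 to 7.62 in the other arrays of that group. Adamts9 read 7.29 in the same replicate and 7.20 to 7.21 in the others. Mmp19 read 2.97 in diabetic ApoE-/- RAGE-/- replicate 10, below background, and 3.47 to 3.51 in the others.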

How the results depend on the processing

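Of 545 alternatives to the results on single genes, 543 kept the direction and 5 passed an adjusted p of 0.05 (limma). The 2 that turned were Adamts9 under the mean of all its probe sets, at -0.017 for RAGE deletion without diabetes and 0.031 for diabetes in ApoE-/- RAGE-/- mice. Many of the alternatives could not turn a direction. With 1 mean per group, omitting an array outside the compared groups leaves a difference unchanged. So do a fit on the compared groups alone, the filter on dim probe sets and the trended variance. The genes had also been picked for the smallest p in these data. With RAGE deletion in diabetes, the count of genes past the threshold was 1 in place of 0, always Timp4, with B above 0, with dimmer probe sets left out (adjusted p 0.0381, limma) and with a trended robust variance (adjusted p 0.0479, limma). Leaving out single arrays gave 0 to 2. It was 2 without diabetic ApoE-/- replicate 2 (Timp4 and Adamtsl3) and 1 without non-diabetic ApoE-/- replicate 5 (Timp4, adjusted p 0.0436, limma).

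Counts at an unadjusted p under 0.05 moved more. Except without replicates 9 and 10, the share of all genes was not counted under these settings. Whether the members moved more than all genes is thus not known there. For diabetes in ApoE-/- mice the count of 8 became 4 without dimmer probe sets and 4 to 8 without single arrays (4 without diabetic ApoE-/- replicate 4). For RAGE deletion without diabetes the count of 2 became 1 without dimmer probe sets, 6 with array weights and 1 to 3 without single arrays. For diabetes in ApoE-/- RAGE-/- mice the count of 5 became 12 with array weights and 2 to 9 without single arrays. Without replicates 9 and 10 it was 3, beside 4.24% of all genes. For RAGE deletion with diabetes single omissions gave 5 (without diabetic ApoE-/- replicate 3) to 13, and for the interaction 2 to 7. Without dimmer probe sets the medians were 0.036, -0.092, -0.23 and -0.049 for diabetes in ApoE-/-, diabetes in ApoE-/- RAGE-/-, RAGE deletion with diabetes and the interaction; the last was -0.054 without replicates 9 and 10 as well. For RAGE deletion without diabetes, single omissions gave medians of -0.078 to -0.00285. Reading the pathway lists without replicates 9 and 10 was chosen after seeing the data; with RAGE deletion in diabetes it left 2 of 13 substrates lower at an unadjusted p under 0.05 in place of 6. Except where fewer probe sets or arrays entered, the cause was not tested. A fit on the compared groups alone was not run for the interaction, and the filter gave no value for Mmp8 and Mmp19. No paired analysis was possible because each replicate number, 1 to 15, occurs once and no group shares one. The 12 genes at or below background limit what can be seen of collagenases in particular.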
